A study of Mus musculus with 40 samples.

Results

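Oxidative phosphorylation is the step of respiration in which electrons from NADH and succinate pass along complexes I to IV of the inner mitochondrial membrane to oxygen, and in which the proton gradient they build drives ATP synthase, complex V. The subunits of complexes I, III, IV and V are encoded in both genomes, a small set in mitochondrial DNA and the rest in the nucleus, whereas complex II, succinate dehydrogenase, is encoded in the nucleus alone. Striated muscle and brown fat carry their own isoforms of several complex IV subunits, so that the make-up of the complex, and not only its amount, differs between tissues of the body.

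The genes described here are 102 protein-coding genes of these complexes among the 53647 genes of the count matrices. They were chosen by name: symbols that begin with Ndufa, Ndufb, Ndufc, Ndufs, Ndufv, Uqcr, Atp5 or Cox4 to Cox8 (assembly factors and the ATPase inhibitor left out), Sdha to Sdhd, and the 13 protein genes of mitochondrial DNA. Of the 89 nuclear genes, 38 belonged to complex I, 4 to complex II, 8 to complex III, 21 to complex IV and 18 to complex V. Ndufa4 and Ndufa4l2 were counted with complex IV, where the Ndufa4 protein is found. The choice by name does not take in every subunit. Cyc1, the cytochrome c1 of complex III, has a symbol outside it and is given below with the partners. The 13 mitochondrial genes, 7 of complex I, 1 of complex III, 3 of complex IV and 2 of complex V, were kept apart throughout. Cox8c had no count in any library, and Ndufb11b, Cox5b-ps, Cox7b2 and Atp5po-2 stayed under 10 counts in every library. The test over embryonic ages took in 87 of the 89 nuclear genes and all 13 mitochondrial genes.

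The 40 RNA-seq libraries came from larynx, esophagus and trachea of untreated wild-type FVB/N mice, in 20 groups of 2 libraries. A first set of 30, here called short-code libraries after their labels, covered the 3 tissues at 5 embryonic ages (E, days of gestation): E10.5 and E11.5 early on, E13.5 in the middle, then E15.5 and, last, E18.5. A second set of 10, called index libraries, covered the 3 tissues at E15.5 and the larynx at birth (P0) and in adults of 6 to 8 weeks. The E10.5 larynx was labelled primitive laryngopharynx and the index larynx was labelled vocal fold. Per the study's methods, tissue was pooled from 10 animals at the embryonic ages, or 20 at E15.5, and pooling at P0 and in adults was not given. The methods call the 2 libraries of a group biological replicates but do not state how the pools were divided between them, so the tests measure the spread between these libraries. These were whole tissues, in which fewer cells of a type and less RNA per cell cannot be told apart.

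Library totals ran from 3286403 to 26378600 expected counts in the short-code set and from 22553100 to 35831500 in the index set. Some libraries stood apart before any result was taken from them. The short-code libraries larynx 2 of E11.5, larynx 2 of E15.5 and trachea 2 of E15.5 had counts on 1108, 686 and 1012 olfactory receptor genes, against 80 to 319 in the other short-code libraries, and larynx 1 of E11.5 was the shallowest of the set. Among the index libraries, esophagus 2 of E15.5 differed from its partner in muscle markers and in nearly every gene described here. The counts of nuclear genes at the index steps and between the 2 kinds of library are therefore given with and without it. Other results that it enters, the splines and the mitochondrial genes among them, are for the most part given with it in. Mitochondrial ribosomal RNA took 9.30% to 32.2% of all counts in short-code libraries and 0.050% to 0.196% in index libraries. The 2 sets were therefore tested apart.

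The nuclear genes took a larger share of the transcriptome in later embryos. At E10.5 their share of all nuclear protein-coding counts was 0.742% at the lowest, 0.894% at the median and 0.996% at the highest of 6 libraries. At E11.5 it was 0.607%, 0.860% and 0.951%, and it lay above these values without overlap at E13.5, with 1.15%, 1.36% and 2.07%. At E15.5 it was 1.58%, 2.00% and 3.25%, and at E18.5 it was 1.48%, 1.88% and 2.06%. The mean at E18.5 was 2.06 times that at E10.5, or 1.66 times when the shares were taken of all counts. The highest value of all belonged to the short-code trachea 1 of E15.5, whose partner trachea 2 had the lowest of that age. These shares are descriptions, with no test.

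**Figure D1:**
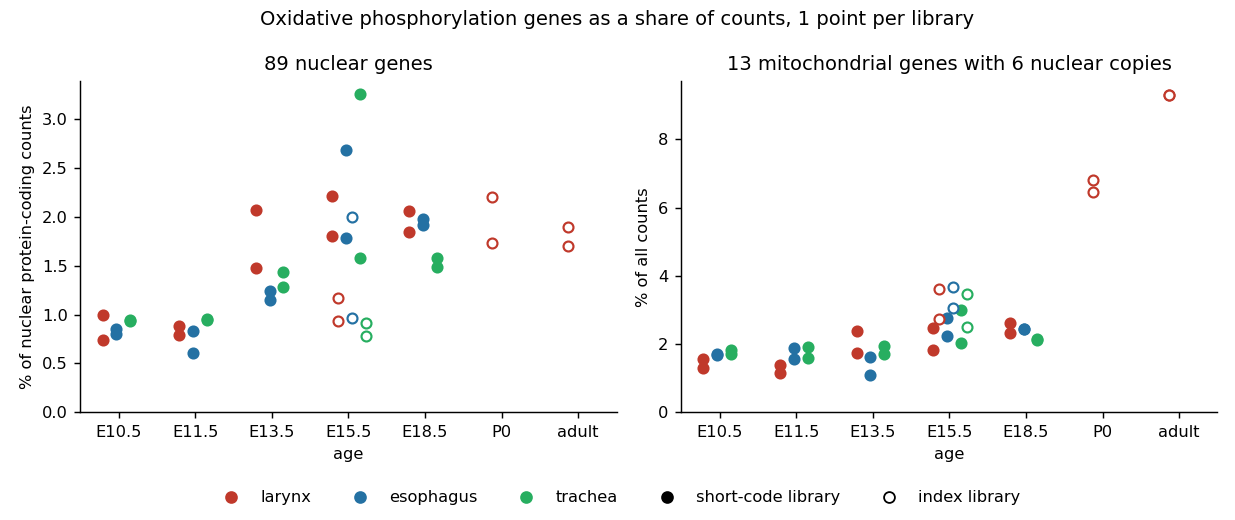
Share of counts on the y axis (left, the 89 nuclear genes as a percent of nuclear protein-coding counts; right, the 13 mitochondrial genes with the 6 nuclear copies of mitochondrial genes as a percent of all counts) against age, with 1 point per library, colors for tissue, filled points for short-code and open points for index libraries. The nuclear share lay between 0.607% and 0.996% up to E11.5 and at 1.15% or above from E13.5 in the short-code libraries, and the mitochondrial share was 9.29% and 9.30% in the adult larynx.

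The first comparison asked at which age the subunit genes changed, taking the mean of the 3 tissues in the short-code set. Between E10.5 and E11.5 none of the 87 nuclear genes passed edgeR's quasi-likelihood test at an adjusted p of 0.05, and 1 passed an unadjusted p of 0.05, whereas 10.8% of all 35512 genes tested were called. DESeq2 called 0 as well. Their median log2 change was −0.08.

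From E11.5 to E13.5, 82 of the 87 nuclear genes rose and none fell, against 11.1% of all genes tested that rose and 15.9% that fell (27% called in all). The median log2 change of the nuclear genes was 0.93, while that of all genes tested was −0.57 and that of the 12748 genes whose normalized count averaged 100 or more was 0.08. For 69 of the nuclear genes (79.3%) the 6 libraries of E13.5 did not overlap the 6 of E11.5, against 11.7% of all genes tested and 24.5% of the well-counted ones. The rise reached every complex, with 37 of 38 genes of complex I, 4 of 4 of complex II, 8 of 8 of complex III, 17 of 20 of complex IV and 16 of 17 of complex V. The 5 genes that did not pass were Ndufb11b, Cox5b-ps and Cox7b2, which were near 0, and Cox6b2 and Atp5mc2, with log2 changes of 0.35 and 0.46.

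From E13.5 to E15.5, 73 of the 87 rose and none fell, with a median log2 change of 0.85, against 21.3% of all genes tested that rose and 13.2% that fell (34.6% in all). The median of all genes tested was 0.71 at this step, and that of the 12748 well-counted genes was −0.02. The counts by complex were 32 of 38, 4 of 4, 8 of 8, 13 of 20 and 16 of 17 for complexes I to V. The 2 ages overlapped for most genes, and the 12 with no overlap (13.8%) were no larger a share than among all genes tested (16.3%) or the well-counted ones (34.0%). The libraries of E15.5 spread more widely than those of E13.5, as their shares of counts show. When the 3 libraries rich in olfactory receptor genes were left out, 80 and 71 nuclear genes rose at the E13.5 and E15.5 steps, beside 12.4% and 19.6% of all genes.

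From E15.5 to E18.5 only 2 nuclear genes were called, and both fell, against 2.7% of all genes that fell (6.71% called in all). They were Atp5mk, a small membrane subunit of ATP synthase (log2 change −0.63 ± 0.15 standard error, adjusted p = 0.0131), and Cox7b, a complex IV subunit (−0.62 ± 0.18, adjusted p = 0.0404). The median of the nuclear genes was −0.18. Leaving out the short-code trachea 2 of E15.5 raised this count to 17 (9.15% of all genes called) and leaving out larynx 2 of E15.5 brought it to 0 (2.73%), so the count at this step turned on single libraries.

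Over the whole embryonic span, E18.5 against E10.5, 83 of the 87 nuclear genes rose with a median log2 change of 1.56, against 21.2% of all genes that rose (39.9% called in all). The 2 ages did not overlap for 81 of the 87 (93.1%), against 30.1% of all genes tested and 62.7% of the well-counted ones. The median log2 changes were 1.55 for complex I, 1.52 for complex II, 1.78 for complex III, 1.38 for complex IV and 1.53 for complex V.

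**Figure D2:**
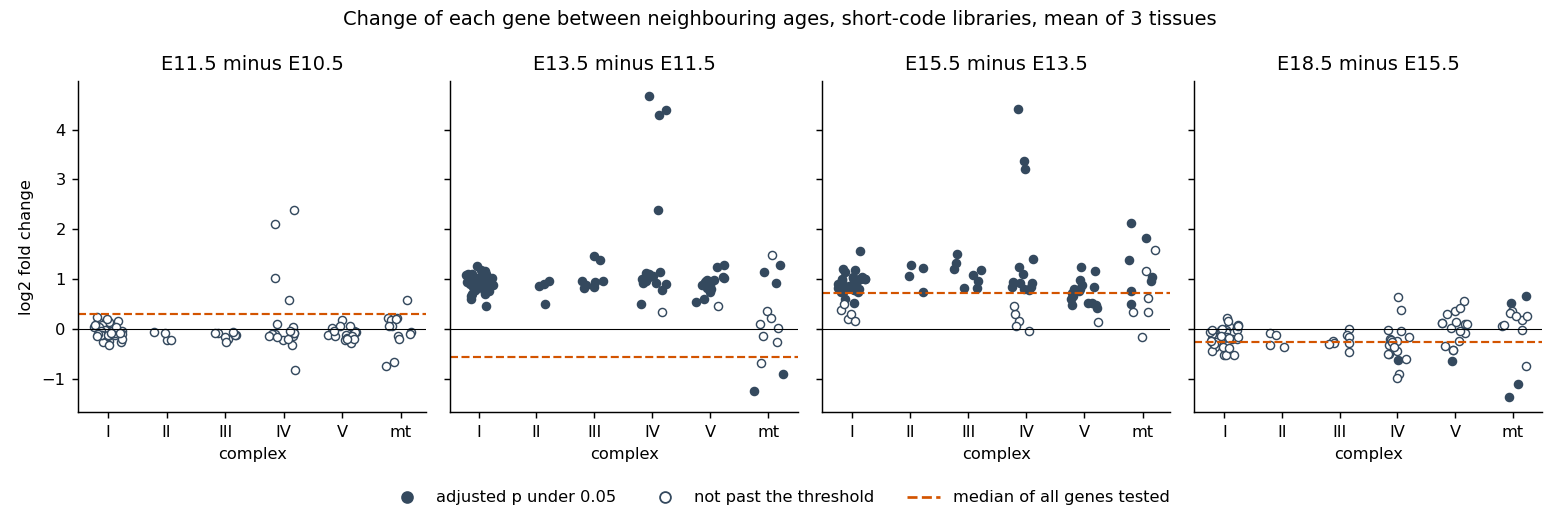
Log2 fold change of each gene (y axis) at the 4 steps between neighboring embryonic ages, mean of 3 tissues, with genes grouped by complex (I to V, nuclear) and the mitochondrial genes (mt) on the x axis. Filled points passed an adjusted p of 0.05 and the dashed line is the median of all genes tested. Nuclear genes near 0 (Ndufb11b, Cox5b-ps and Cox7b2) are left out, 82 and 73 nuclear genes rose at the E13.5 and E15.5 steps, and 0 and 2 were called at the first and last step.

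The most abundant subunits showed the size of the change. Atp5f1b, the catalytic beta subunit of ATP synthase, was the highest nuclear gene per kilobase of transcript at both E10.5 and E18.5. Its normalized count was 13632, 15914 and 17344 (lowest, median, highest of 6 libraries) at E10.5 and 32827, 43950 and 61257 at E18.5, a log2 change of 1.53 ± 0.18 (adjusted p = 7.32e-08). The groups did not overlap. Atp5f1a, the alpha subunit, changed by 1.53 ± 0.17 and was the second highest per kilobase.

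Cox4i1, the general isoform of complex IV subunit 4, had 2536, 3233 and 3980 normalized counts at E10.5, 5186, 5860 and 10702 at E13.5, and 8193, 10815 and 13418 at E18.5. The libraries of E13.5 and of E18.5 lay above those of E10.5 without overlap, while E13.5 and E18.5 overlapped, and the log2 change from E10.5 to E18.5 was 1.75 ± 0.18 (adjusted p = 1.69e-08). Cox6b1, the other leading complex IV subunit, rose by 1.62 ± 0.20. Uqcrc1 and Uqcrc2, the core proteins of complex III, rose by 1.91 ± 0.20 and 1.81 ± 0.18. Ndufs1, a core subunit of complex I on the path of the electrons, rose by 1.21 ± 0.18.

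All 4 genes of succinate dehydrogenase rose at both middle steps. Sdha, the flavoprotein that oxidizes succinate, had 2472, 2591 and 3029 normalized counts at E10.5 and 5856, 7220 and 9709 at E18.5. Its rise from E11.5 to E13.5 was among the smallest that passed (log2 change 0.50 ± 0.17, adjusted p = 0.0297), and its rise from E13.5 to E15.5 was 1.29 ± 0.17 (adjusted p = 1.85e-06). Sdhb, the iron-sulfur subunit, changed by 0.91 ± 0.20 and 1.06 ± 0.20 at these 2 steps. The membrane anchors Sdhc and Sdhd changed by 0.85 ± 0.18 and 0.96 ± 0.19 at the first of them, and by 0.74 ± 0.18 and 1.23 ± 0.19 at the second.

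Among the other genes, the largest rises with no overlap from E10.5 to E18.5 outside the isoform pairs were those of Ndufb10, an accessory subunit of complex I, and Atp5mc1, one of the genes for subunit c of the ATP synthase rotor. Ndufb10 went from 230, 363 and 451 normalized counts at E10.5 to 1956, 2606 and 4231 at E18.5 (log2 change 2.97 ± 0.19, adjusted p = 2.64e-12). Ndufb9, its neighbor in the membrane arm of complex I, rose by 2.35 ± 0.20. Within the E13.5 step Uqcr11, a small subunit of complex III, rose by 1.46 ± 0.23, and within the E15.5 step Uqcrfs1, the Rieske iron-sulfur protein, rose by 1.5 ± 0.18. Some genes passed the test at the E13.5 step and not at the E15.5 step. Cox7a2l, which takes part in joining complexes III and IV, changed by 1.03 ± 0.15 and then by 0.05 ± 0.15 (adjusted p = 1.76e-05 and 1.00), and Ndufa13 by 1.27 ± 0.20 and then by 0.39 ± 0.19 (adjusted p = 3.70e-05 and 0.130).

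Subunit c is made from 3 genes that encode the same mature protein. Atp5mc1 rose from 1195, 1426 and 1680 normalized counts at E10.5 to 5762, 6987 and 12015 at E18.5 (log2 change 2.45 ± 0.23, adjusted p = 2.22e-09). Atp5mc3 rose by 1.68 ± 0.18, and Atp5mc2 by 0.74 ± 0.20 (adjusted p = 0.00330) with groups that overlapped. Per kilobase of transcript, the median share of Atp5mc1 among the 3 genes went from 51.0% at E10.5 to 65.8% at E18.5. That of Atp5mc2 went from 11.0% to 4.31%, and that of Atp5mc3 from 38.6% to 29.4%. In the index libraries the median share of Atp5mc1 was 39.1% at E15.5, 45.8% at P0 and 47.1% in adults.

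Several complex IV subunits exist as a pair of a general isoform and an isoform known from heart, skeletal muscle or brown fat, and these pairs gave the largest changes of the whole set. Cox6a2, the heart and skeletal muscle isoform of subunit 6a, was at 0 in both larynx libraries of E10.5, at 0.980 and 16.4 normalized counts in those of the esophagus and at 60.4 and 111 in those of the trachea. At E11.5 it had 9.52 and 10.6 in larynx, 16.9 and 0.825 in esophagus and 178 and 24.5 in trachea libraries. At E13.5 it had 850 and 1714 in larynx, 68.9 and 519 in esophagus and 322 and 409 in trachea libraries. The larynx libraries were thus the highest at E13.5, although the trachea had been the highest at E10.5.

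At E15.5 the short-code values of Cox6a2 were 1902 and 1407 for larynx, 2749 and 658 for esophagus and 735 and 1084 for trachea. At E18.5 they were 3364 and 2355, 2281 and 1939, and 1383 and 1566 in the same order. The log2 change was 4.67 ± 0.60 at the E13.5 step (adjusted p = 4.95e-06) and 1.39 ± 0.44 at the E15.5 step (adjusted p = 0.0166), and at both steps the lowest library of the later age lay below the highest of the earlier one. From E10.5 to E18.5 Cox6a2 was at least 931.5-fold higher in the larynx, with 3 counts per library taken as the floor for the value of 0, 243-fold higher in the esophagus from 19 counts in all at E10.5, and 17.2-fold higher in the trachea.

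Its partner Cox6a1, the general isoform, rose at the E13.5 step (log2 change 0.91 ± 0.22, adjusted p = 0.00365). At the E15.5 step its change was 0.31 ± 0.22 (adjusted p = 0.348). Per kilobase, Cox6a2 made up 0%, 0.734% and 8.30% (lowest, median, highest) of the pair at E10.5, 3.58%, 20.3% and 36.1% at E13.5, and 42.2%, 52.3% and 65.7% at E18.5. At E18.5 the larynx libraries, at 62.6% and 65.7%, lay above the esophagus, at 42.2% and 53.3%, and the trachea, at 45.8% and 51.3%. In the index larynx the share was 36.4% and 19.5% at E15.5, 61.2% and 63.8% at P0 and 72.3% and 75.0% in adults, and the short-code larynx of E15.5 had 56.9% and 37.9%.

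Cox7a1, the muscle and brown fat isoform of subunit 7a, was raised most at the E15.5 step in its normalized counts. It had 23.2, 171 and 692 normalized counts (lowest, median, highest) at E13.5 and 821, 1659 and 4151 at E15.5, with no overlap (log2 change 3.37 ± 0.43, adjusted p = 9.76e-07). The rise at the E13.5 step was 4.28 ± 0.58 (adjusted p = 8.32e-06), with groups that overlapped. At E18.5 Cox7a1 was 219-fold higher than at E10.5 in the larynx, 145-fold in the esophagus and 12.5-fold in the trachea, where it had already been at 39.4 and 91.0 at E10.5. Its partner Cox7a2 rose by 0.93 ± 0.18 and 0.92 ± 0.18 at the 2 middle steps. The share of Cox7a1 in the pair went from a median of 1.92% at E10.5 to 12.9% at E13.5 and 42.5% at E15.5 in the short-code libraries. The index libraries of E15.5 ran from 3.43% to 65.1%, the highest being esophagus 2, with a median of 7.02% (16.3% and 5.82% in the larynx, against 40.6% and 50.0% in the short-code larynx). Within the index larynx the share was 46.3% and 49.2% at P0 and 67.7% and 69.5% in adults.

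Cox8b, the muscle and brown fat isoform of subunit 8, was at or near 0 at E10.5, with no count in the larynx and 2 counts in all in each of the other tissues. It had 19.8, 45.8 and 177 normalized counts at E13.5 and 445, 1008 and 3205 at E15.5, with no overlap (log2 change 4.42 ± 0.45, adjusted p = 6.37e-08). In the larynx it was at least 242-fold higher at E18.5 than at E10.5, against the floor of 3 counts per library. Its partner Cox8a rose at the E13.5 step (1.09 ± 0.22, adjusted p = 0.000736) and did not pass at the E15.5 step (0.46 ± 0.22, adjusted p = 0.116). Cox8b made up 5.78%, 8.21% and 9.32% of the pair per kilobase at E18.5 in the short-code libraries. These shares depend on the canonical transcripts used, of 2149 bases for Cox8b and 564 for Cox8a. Before scaling by length, the mean normalized counts in the larynx of E18.5 were 744 for Cox8b and 1904 for Cox8a. In the index larynx it made up 5.16% and 3.11% at E15.5, where the short-code larynx had 8.41% and 10.3%, and 32.7% and 39.3% in adults.

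Ndufa4l2, the paralog of the complex IV subunit Ndufa4 and a known target of the hypoxia response, had 39.1, 63.5 and 90.8 normalized counts at E13.5 and 295, 556 and 984 at E15.5. The ages did not overlap (log2 change 3.21 ± 0.39, adjusted p = 6.50e-07). At E10.5 it had been at 0 to 9.63. At E18.5 the libraries of each tissue lay far apart, with 944 and 195 in the trachea, 868 and 368 in the esophagus and 542 and 333 in the larynx. In the index larynx it had 403 and 621 at E15.5, 241 and 119 at P0 and 366 and 207 in adults. Its share of the pair with Ndufa4 was 2.49% to 13% in the short-code libraries of E15.5 and at most 16.9% at E18.5. In the index libraries it was 9.63% to 23.9% at E15.5 and 1.23% and 2.85% in the adult larynx, there below the shares of the 3 muscle isoforms.

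The other paired isoforms stayed minor in the short-code libraries. Cox4i2, the isoform of subunit 4 known from lung and from low oxygen, rose by 2.27 ± 0.34 from E10.5 to E18.5 (adjusted p = 4.60e-06), from 6.06 to 20.9 at E10.5 to 33.5 to 123 at E18.5, and its share of the pair with Cox4i1 was at most 2.67% in any library. Cox6b2, the testis isoform of subunit 6b, did not pass (−0.66 ± 0.34, adjusted p = 0.144), and the median of its share went from 3.52% to 0.799%. At E15.5 its share was 0.863% to 1.58% in short-code libraries and 0.713% to 13.55%, with a median of 7.125%, in index libraries. Cox7b2 had at most 7.38 normalized counts in the embryonic short-code libraries of E11.5 and E13.5.

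**Figure D3:**
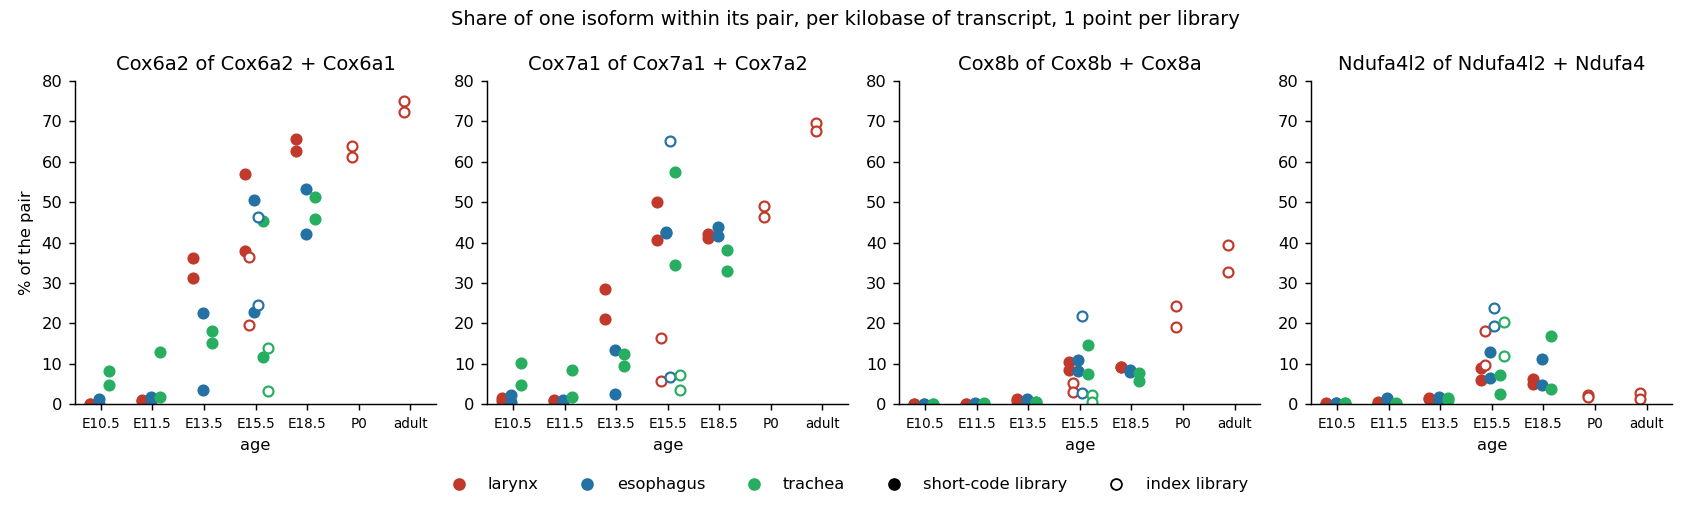
Share of the muscle or hypoxia isoform within its pair (y axis, percent, counts per kilobase of transcript) against age, with 1 point per library, colors for tissue, filled points for short-code and open points for index libraries. The median share of Cox6a2 went from 0.734% at E10.5 to 52.3% at E18.5, Cox7a1 and Cox8b rose most between E13.5 and E15.5, and Ndufa4l2 was at most 2.85% in the P0 and adult larynx.

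Of the isoform pairs, Cox6a2 and Cox6a1 are not shown here, since Cox6a2 had no promoter window. The promoter windows of the muscle isoforms Cox7a1 and Cox8b and of their general partners are shown. They run from 250 bases before to 50 bases after the annotated start, from RefSeq on GRCm38.p6, and capitals mark matches to the motifs searched.
Cox7a1, chr7:30183921-30184220, plus strand: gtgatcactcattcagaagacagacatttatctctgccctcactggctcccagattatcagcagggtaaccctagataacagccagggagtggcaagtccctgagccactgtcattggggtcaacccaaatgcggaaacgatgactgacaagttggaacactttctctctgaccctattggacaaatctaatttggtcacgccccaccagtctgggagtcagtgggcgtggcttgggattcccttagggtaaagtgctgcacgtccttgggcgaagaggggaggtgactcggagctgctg
Cox7a2, chr9:79759804-79760103, minus strand: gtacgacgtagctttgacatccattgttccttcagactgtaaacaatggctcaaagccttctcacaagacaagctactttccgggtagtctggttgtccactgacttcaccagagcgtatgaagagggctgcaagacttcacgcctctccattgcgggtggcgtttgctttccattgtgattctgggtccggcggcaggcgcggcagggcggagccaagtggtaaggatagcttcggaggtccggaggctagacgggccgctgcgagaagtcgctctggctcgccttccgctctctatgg
Cox8b, chr7:140900397-140900696, minus strand: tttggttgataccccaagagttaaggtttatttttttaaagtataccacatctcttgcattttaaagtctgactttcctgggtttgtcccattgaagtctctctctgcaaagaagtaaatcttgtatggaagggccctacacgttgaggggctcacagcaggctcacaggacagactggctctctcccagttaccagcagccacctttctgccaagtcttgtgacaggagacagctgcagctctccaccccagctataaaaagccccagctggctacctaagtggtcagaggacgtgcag
Cox8a, chr19:7217567-7217866, minus strand: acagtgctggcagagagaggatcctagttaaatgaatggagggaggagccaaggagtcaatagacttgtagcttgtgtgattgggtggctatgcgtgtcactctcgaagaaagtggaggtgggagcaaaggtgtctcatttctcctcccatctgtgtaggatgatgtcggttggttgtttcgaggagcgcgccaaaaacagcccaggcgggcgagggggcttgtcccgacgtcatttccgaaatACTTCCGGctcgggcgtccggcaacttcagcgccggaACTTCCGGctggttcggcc

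The GC content of these windows was 53.0% for Cox7a1, 56.7% for Cox7a2, 48.3% for Cox8b and 56.0% for Cox8a. Motifs of 3 factors known for the genes of respiration were searched on both strands: the NRF1 motif (its palindromic core), CCGGAAGT (reverse complement ACTTCCGG) for the ETS factor GABPA, and AAGATGGC for YY1. Cox8a held the ETS letters at 2 places and the other 3 windows held none of the motifs. Of the 27025 genes with a window, 1.07% held the NRF1, 4.31% the ETS and 3.19% the YY1 letters. Windows were matched for 69 of the 89 nuclear genes (77.5%), under the 80% needed to describe the whole set, and Cox6a2 was among those without one. The motifs overlap no other motif searched, and a match is not a binding site.

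Markers of heart muscle, skeletal muscle and brown fat also changed with age, each list at its own steps. The sum of 13 heart muscle genes, in CPM (counts scaled to a common total of nuclear protein-coding counts), was 16546 and 29720 for the larynx, 1602 and 10561 for the esophagus and 6846 and 11197 for the trachea at E13.5, against 164 to 6133 at E11.5. All 13 rose at the E13.5 step and 9 of them fell and 2 rose at the E15.5 step. Myh6, the alpha myosin heavy chain of the heart, had 69067 and 119722 normalized counts in the larynx libraries of E13.5, the same libraries in which Cox6a2 was highest at that age. At E10.5 the 2 trachea libraries had heart sums of 4791 and 8604 while Myh6 was at 4.72 and 1.73 normalized counts in the larynx, where Cox6a2 was at 0.

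The sum of 17 skeletal muscle genes ran from 15.6 to 260 at E10.5, from 460 to 3197 at E13.5, from 26739 to 86512 in the short-code libraries of E15.5 and from 54480 to 110705 at E18.5. Of these genes 14, 8, 17 and 2 rose at the 4 successive steps, and 1 fell, at the E13.5 step. Ckm, the muscle creatine kinase, was at 0 in both larynx libraries of E10.5. The sum of 8 brown fat genes, with Cox8b left out of its list of 9, was 39.2 to 82.9 at E13.5 and 340 to 6886 in the short-code libraries of E15.5, with the highest value in trachea 1. That library also had the highest Cox7a1 and Cox8b of the short-code libraries of its age and 36594 normalized counts of Ucp1, the uncoupling protein of brown fat. The part of heart, skeletal muscle or brown fat tissue in these results was not tested.

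**Figure D4:**
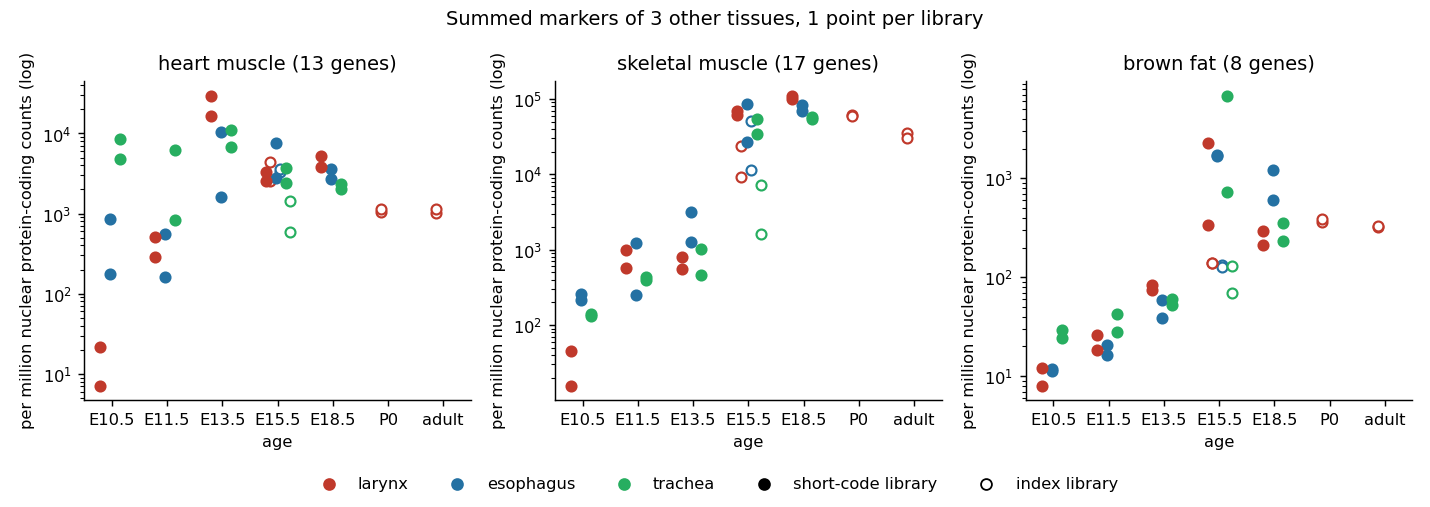
Summed markers of heart muscle, skeletal muscle and brown fat (y axis, CPM over nuclear protein-coding counts, log scale; Cox8b is left out of the brown fat sum) against age, with 1 point per library, colors for tissue and open points for index libraries. Heart markers reached 29720 in a larynx library of E13.5, and skeletal muscle markers were at most 3197 up to E13.5 and at least 26739 in the short-code libraries from E15.5.

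The 13 genes of mitochondrial DNA are given apart, since their counting has limits that the nuclear genes do not share. In GRCm39 a stretch of chromosome 1 (24650616 to 24655278, minus strand) holds 6 pseudogenes that copy mitochondrial genes: Gm28661 copies mt-Co2 with 100% identity over 681 bases, Gm28437 copies mt-Co3 with 100% over 783, Gm10222 copies mt-Nd4l with 100% over 294, Gm28439 copies mt-Nd4 with 100% over 876, Gm28438 copies mt-Nd3 with 99.7% over 345 and Gm29216 copies part of mt-Co1 with 99.8% over 483. Reads were shared out between a gene and its copy in the authors' counting. Of the counts of such a pair, the mitochondrial gene held at most 3.92% for mt-Co2 and 17.7% for mt-Co3, 29.8% to 98.6% for mt-Nd3, 0% to 100% for mt-Nd4l and all for mt-Nd4, whose copy had none. The tests were therefore also run with each gene summed with its copy, an alternative chosen after seeing the data.

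Neighboring mitochondrial genes also overlap each other, which makes reads over the shared bases ambiguous. The stretches of 2 such pairs are shown with the shared bases in capitals and 8 bases on either side, from GRCm39.
mt-Atp8 and mt-Atp6, chrMT:7919-7977, plus strand: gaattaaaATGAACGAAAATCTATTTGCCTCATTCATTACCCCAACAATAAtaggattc
mt-Nd4l and mt-Nd4, chrMT:10159-10181, plus strand: ctactacaATGCTAAaaattatt
The first shares 43 bases and the second 7. In both, the start codon of the downstream gene lies before the end of the upstream one. Not shown is the overlap of mt-Nd5 (11742 to 13565, plus strand) with mt-Nd6 (13552 to 14070, minus strand). Base 8607, shared by mt-Atp6 and mt-Co3, is not shown either. No source used here states the strand setting of the counting. Reads of mt-Nd6, which lies on the other strand, can therefore not be told apart from those of transcripts antisense to it.

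From E10.5 to E11.5 none of the 13 was called by edgeR's quasi-likelihood test, 1 passed an unadjusted p of 0.05, and the median log2 change was 0.06. From E11.5 to E13.5, 3 mitochondrial genes rose and 2 fell (11.1% and 15.9% of all genes). Those that rose were mt-Nd3 (log2 change 1.29 ± 0.20, adjusted p = 4.55e-05), a membrane subunit of complex I, and the ATP synthase subunits mt-Atp6 (1.15 ± 0.19, adjusted p = 9.13e-05) and mt-Atp8 (0.92 ± 0.21, adjusted p = 0.00233). The proton-pumping subunits of complex I mt-Nd4 and mt-Nd5 fell by 1.24 and 0.91 on the log2 scale (standard errors 0.28 and 0.25, adjusted p = 0.00146 and 0.00764). The ages overlapped for each of these but mt-Atp6. Summed with its copy, mt-Co3, a core subunit of complex IV, also passed (0.65), and mt-Nd3 passed with a smaller rise (0.95).

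From E13.5 to E15.5, 7 of the 13 rose and none fell, beside 21.3% of all genes that rose. mt-Nd4 went from 1851, 3803 and 5576 normalized counts to 9437, 15408 and 26183 (log2 change 2.13 ± 0.28, adjusted p = 1.93e-06), and mt-Nd5 from 2109, 4397 and 5703 to 9054, 14047 and 22227 (1.82 ± 0.25, adjusted p = 3.99e-06). For both, and for mt-Nd6 (1.38 ± 0.28), the 2 ages did not overlap. mt-Nd1 (0.50), mt-Nd2 (0.76), mt-Cytb, the cytochrome b of complex III (1.03), and mt-Co1, the catalytic subunit of complex IV (0.97), rose with overlap. Summed with their copies, mt-Co2 (1.04), mt-Co3 (0.62) and mt-Nd4l (0.97) passed as well.

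From E15.5 to E18.5 mt-Nd5 and mt-Nd4 fell again, by 1.37 ± 0.25 (adjusted p = 0.00177) and 1.11 ± 0.27 (adjusted p = 0.0150) on the log2 scale, to 3502, 5696 and 7343 and to 4755, 7710 and 9246 normalized counts, below every library of E15.5. mt-Nd1 (0.53) and mt-Nd3 (0.65) rose, beside 4.01% of all genes that rose and 2.7% that fell, and mt-Nd3 did not pass when summed with its copy (0.43) and had the opposite sign in the esophagus alone (−0.23). Over the whole span from E10.5 to E18.5, 8 of the 13 rose (21.2% of all genes did), with a median log2 change of 1.29. Counted alone, the highest were mt-Co3 (1.81 ± 0.57), mt-Nd3 (1.70 ± 0.20), mt-Atp6 (1.60 ± 0.19) and mt-Atp8 (1.59 ± 0.22). mt-Nd1, mt-Nd2, mt-Cytb and mt-Co1 rose by 1.33, 1.14, 1.29 and 1.31. Summed with their copies, mt-Co3 and mt-Nd3 rose by 1.71 and 1.41, which put mt-Nd3 below mt-Atp6 and mt-Atp8. mt-Nd4, mt-Nd5 and mt-Nd6 did not pass, with −0.04 ± 0.27, −0.27 ± 0.25 and 0.55 ± 0.27. mt-Co2 and mt-Nd4l passed when summed with their copies (1.54 and 0.70), which made 10 of 13.

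**Figure D5:**
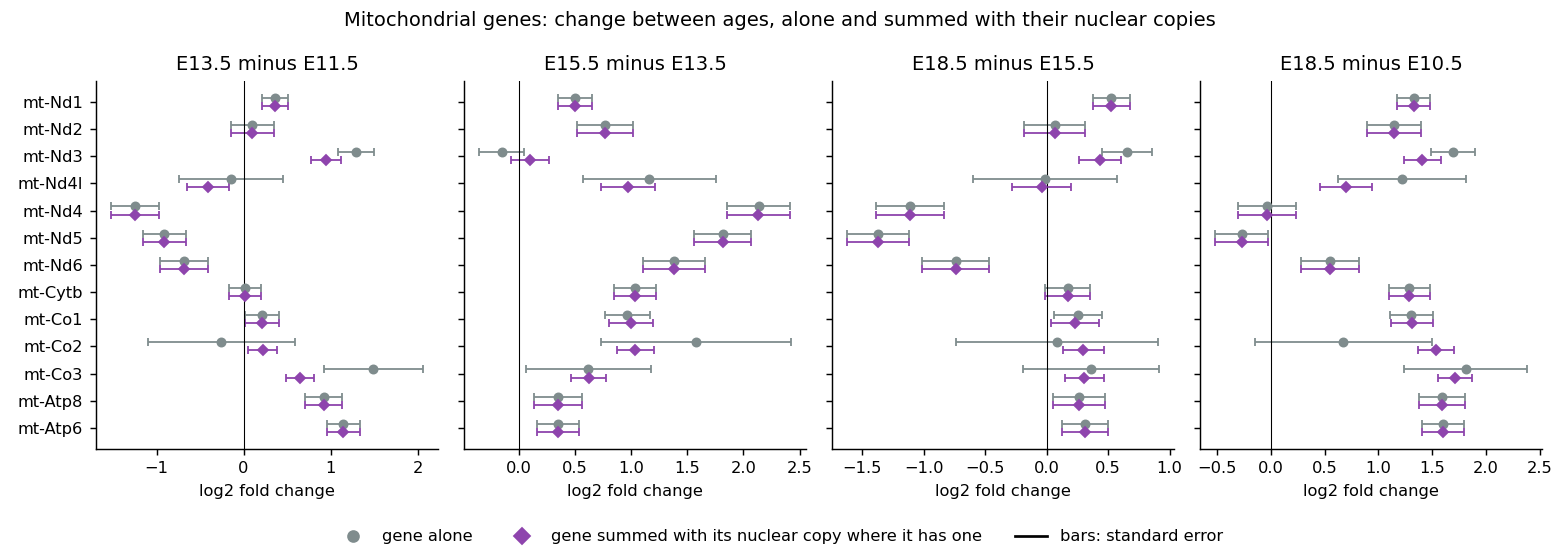
Log2 fold change (x axis) of the 13 mitochondrial genes (y axis) at 3 steps and over the whole embryonic span, short-code libraries, mean of 3 tissues. Gray circles are the gene alone, purple diamonds the gene summed with its nuclear copy where it has one, and bars are standard errors. mt-Nd4 and mt-Nd5 changed by −1.24 and −0.91, by 2.13 and 1.82 and by −1.11 and −1.37 at the 3 steps, and the wide bars of mt-Co2, mt-Co3 and mt-Nd4l shrank when the copies were added.

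The next comparison asked whether the tissues differed. In each tissue by itself most nuclear genes rose between E10.5 and E18.5: 80 in the larynx (median log2 change 1.81), 83 in the esophagus (1.75) and 63 in the trachea (1.05), where 15.3%, 15.2% and 14.2% of all genes rose (27.2%, 26.4% and 24.8% called in either direction). In the trachea the count fell to 36 without the E10.5 trachea 1, where 10.6% of all genes rose. Tested as the difference between tissues in this change, no nuclear gene was called for larynx against esophagus or for trachea against esophagus (0.169% and 0% of all genes called, with 0 and 4 nuclear genes at an unadjusted p of 0.05), and for larynx against trachea Cox6a2 alone passed, with a larger rise in the larynx (0.653% of all genes in that direction and 0.836% in either, with 17 nuclear genes at an unadjusted p of 0.05). DESeq2 called 0, 0 and 2 nuclear genes in these comparisons, in the same order. The counts at an unadjusted p and by DESeq2 have no share of all genes beside them. They do not show whether the subunit genes stood out. When the 3 libraries rich in olfactory receptor genes were left out none was called. For larynx against trachea a block on the replicate number and the fits over all 40 libraries also called none. The test without a filter on low counts called 7 there. The change of 83 of the 87 nuclear genes was larger in the larynx than in the trachea, with a median difference of 0.69 on the log2 scale, and the same held for 44.1% of all genes tested and 54.4% of the well-counted ones.

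In level, the tissues differed in no nuclear gene by the test as run, although other settings made some calls. As the mean of 5 ages, no nuclear gene was called for larynx minus esophagus, larynx minus trachea or trachea minus esophagus (0.113%, 0.484% and 0.473% of all genes, with 2, 1 and 4 nuclear genes at an unadjusted p of 0.05), and none was called at E18.5 alone (0.217%, 0.513% and 0%). At E18.5 larynx minus trachea had a median of 0.61, 33 nuclear genes passed an unadjusted p of 0.05 (8.54% of all genes did) and 79 had no overlap between the 2 larynx and the 2 trachea libraries (34.3% of all genes and 55.9% of the well-counted ones had none). Trachea minus esophagus had no overlap for 80 nuclear genes (29.1% of all) and larynx minus esophagus for 39 (29.6%). The share among the well-counted genes is not given for either. Whether the 39 stood out among genes of like counts is therefore not shown. Without a filter on low counts 20 nuclear genes were called for larynx minus trachea and 1 for trachea minus esophagus at E18.5, and 2, 2 and 3 for the means of 5 ages. DESeq2 called 0 for these comparisons except 1 for trachea minus esophagus as the mean of 5 ages. The counts under these other settings, and those at an unadjusted p for the means of 5 ages, have no share of all genes beside them. They therefore do not show whether the subunit genes stood out. A difference that missed the threshold is not shown to be absent.

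Taken tissue by tissue, an alternative chosen after seeing the data, the steps were uneven. At the E13.5 step 77 nuclear genes rose in the larynx (median 1.33), 8 in the esophagus (0.82) and 1 in the trachea (0.62), beside 6.78%, 2.55% and 0.583% of all genes. At the E15.5 step 4 rose in the larynx (0.31), 71 in the esophagus (1.3) and 54 in the trachea (1.00), beside 9.23%, 8.23% and 12% of all genes. At the E13.5 step the change was above 0 for 85, 84 and 85 of the 87 genes in larynx, esophagus and trachea. The difference between tissues at these steps was not tested. The larynx libraries of E13.5 also had the highest heart marker sums of all libraries.

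After E15.5 the data came from the index libraries of the larynx. From E15.5 to P0 no nuclear gene was called (6 at an unadjusted p of 0.05, and 1 by DESeq2), from P0 to adult none (0 at an unadjusted p of 0.05 and 0 by DESeq2, median log2 change −0.05), and from E15.5 to adult none (11 at an unadjusted p of 0.05, 5 by DESeq2, lowest adjusted p 0.0824). Of all genes, 0%, 0.0105% and 2.47% were called. From E15.5 to adult, the 11 at an unadjusted p of 0.05 were a smaller share than among all genes, which is given below. The 6 from E15.5 to P0 and the counts by DESeq2 have no such share beside them. The medians were 0.88 from E15.5 to P0 and 0.80 from E15.5 to adult. These counts turned on the spread that esophagus 2 of E15.5 brought into the fit, for which the nuclear share was 1.99% against 0.964% in its partner. Without that library, 63 nuclear genes were called from E15.5 to P0, 59 from E15.5 to adult and 1 from P0 to adult, beside 14.7%, 33% and 18.6% of all genes.

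Sdha had 2832 and 3729 normalized counts in the index larynx of E15.5, 7062 and 8428 at P0 and 9328 and 9397 in adults, and did not pass with all libraries in the fit (adult minus E15.5 1.39 ± 0.42, adjusted p = 0.108). Cox6a2 had 926 and 343 at E15.5, 2591 and 2301 at P0 and 3175 and 3773 in adults (2.33 ± 1.07, adjusted p = 0.245). Cox7a1 had 195 and 42.3, 1845 and 1206, and 2573 and 2706 at the same ages (4.35 ± 1.64, adjusted p = 0.169). In each case the later groups lay above the libraries of E15.5 without overlap. Cox8a, the general isoform of subunit 8, had 1291 and 1460 at E15.5 and 728 and 1122 in adults, the opposite order.

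The mitochondrial genes had their highest share in adults. With the nuclear copies they made up 2.51% to 3.66% of all counts in the 6 index libraries of E15.5, 6.45% and 6.82% at P0 and 9.29% and 9.30% in the adult larynx. mt-Co1 had 133227 and 158377 normalized counts in the larynx of E15.5, 384724 and 392674 at P0 and 629616 and 644826 in adults, all groups apart (adult minus E15.5 2.00 ± 0.48, adjusted p = 0.0665). For all 13 genes the adult libraries lay without overlap from those of E15.5 (65.8% of all genes did), the median log2 change was 1.65, and none passed the adjusted threshold, with 9 at an unadjusted p of 0.05 (22.6% of all genes). The ratio of mitochondrial to nuclear subunit counts, taken without the nuclear copies, was 2.57 and 3.24 at P0 and 4.31 and 4.82 in adults.

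The 2 kinds of library also differed in these genes at the same age, which bears on any reading across the 2 sets. At E15.5, where both sets hold all 3 tissues, 18 nuclear genes were lower in index than in short-code libraries and none was higher, where 12.6% of all 31192 genes were lower and 6.52% higher (19.1% called in all), with a median log2 difference of −0.94 among the nuclear genes. Atp5mc2 (−1.83 ± 0.31, adjusted p = 0.00233) and Ndufs1 (−1.33 ± 0.28, adjusted p = 0.00708) had no overlap. Without index esophagus 2 of E15.5 the count was 77, where 31.9% of all genes were called. Among mitochondrial genes mt-Nd6 (3.04 ± 0.37), mt-Atp8 (1.75 ± 0.36), mt-Nd4 (1.62 ± 0.28) and mt-Nd2 (1.54 ± 0.29) were higher in index libraries, and mt-Co3 (−1.96 ± 0.46) and mt-Atp6 (−1.86 ± 0.49) were lower. mt-Co3 did not pass when summed with its copy (−0.87), and mt-Nd4l summed with its copy passed as higher in index libraries (2.90 ± 0.40). The study's methods name HiSeq and NovaSeq sequencers without saying which libraries ran on which. Dissection, pooling, library preparation and sequencer may differ between the sets and cannot be told apart here.

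A spline over age, the form of test that the study's methods describe, asked whether each gene varied with age at all, at an adjusted p of 0.01. Over the 36 embryonic libraries 82 nuclear and 10 mitochondrial genes passed (34.3% of 36267 genes). Over the larynx from E10.5 to adult 44 and 9 passed (26.1%), over the esophagus 11 and 0 (5.87%), and over the trachea 6 and 3 (11.498%). Both kinds of library enter these fits as one. In the short-code libraries alone 81 nuclear genes passed in the esophagus (18.1% of all genes) and 54 in the trachea (16%).

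Genes that work beside the complexes, and Cyc1, which the choice by name left out of complex III, were counted in the same fits. For the lists from here on, the shares of all genes that rose and fell at each step, given above, are the background. Of 8 partners at cytochrome c and coenzyme Q, 4 rose at the E13.5 step, 6 at the E15.5 step and 6 from E10.5 to E18.5, with none falling. Cyc1, the cytochrome c1 of complex III, rose by 0.81 ± 0.20 and 1.70 ± 0.20 at the 2 steps and Cycs, cytochrome c itself, by 0.95 ± 0.19 and 1.39 ± 0.19. All 16 genes of the citric acid cycle list were tested, and 14 and 15 rose at the 2 steps, with 0 and 1 falling (15 rose over the whole span). Of 42 assembly factors, 18 and 19 rose and 1 fell at each step, and 22 rose and 1 fell over the whole span.

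Of 24 regulators of mitochondrial biogenesis, 7 rose and 9 fell from E10.5 to E18.5. Ppargc1a, the coactivator PGC-1alpha, rose by 1.54 ± 0.25 and 0.97 ± 0.24 at the 2 middle steps, and Ppargc1b rose by 2.23 ± 0.27 at the E15.5 step. Pprc1, a coactivator of the same family, fell by 0.76 over the whole span on the log2 scale (standard error 0.12, adjusted p = 8.21e-06). Esrra, a nuclear receptor partner of PGC-1alpha, rose by 1.99 over the whole span, while Nrf1 fell by 0.98, Yy1 by 0.52 and Gabpb1 by 1.43. Of the 20 glycolysis genes, 18 rose at the E13.5 step, 9 rose and 4 fell at the E15.5 step, and 13 rose and 4 fell over the span.

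The ribosomal proteins, a large set of small housekeeping genes, give a measure of what other such genes did. Of 78 mitochondrial ribosomal proteins 46 rose at E13.5, then 15 rose and 5 fell. Of 96 cytosolic ribosomal proteins 66 rose and 2 fell, then 3 rose and 64 fell. Of 11 proliferation genes none passed at the E13.5 step and all 11 fell at the E15.5 step.

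Markers of other cell types were counted at the same 2 steps. Of 8 smooth muscle genes 7 rose, then 2 rose and 5 fell, and of 10 hypoxia genes 7 rose, then 6 rose and 1 fell. Of 10 erythroid genes 3 rose and 2 fell, then 1 rose and 6 fell. Of 9 liver genes 2 rose, then 9 fell. Of 9 cartilage genes 3 fell, then 8 rose, of 8 ciliated cell genes 1 rose and 1 fell, then 8 rose, and of 8 thyroid genes 1 rose and 1 fell, then 4 rose. All 9 brown fat genes, Cox8b among them, rose at the E15.5 step and 3 at the E13.5 step. The 1 rise and 1 fall among ciliated cell and among thyroid genes at the E13.5 step lay near the shares of all genes. These lists are short, and a few calls do not set a list apart from all genes. The part of these cell types in the change of the subunit genes was not tested.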

How the data were processed

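Expression in 40 libraries of mouse larynx, esophagus and trachea was analysed from 2 deposited matrices of RSEM expected counts. Per the study's methods, the authors prepared poly(A) RNA libraries, aligned reads with Bowtie2 2.4.2 and estimated expected counts with RSEM 1.3.3 on GRCm39. No source used here gives the annotation release or the strand setting. Expected counts were rounded to whole numbers. Gene IDs were matched to symbols for 52610 of 53647 genes. Totals ranged from 3286403 to 35831500 per library, which sets the precision of low genes.

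Groups followed the labels. Each set was tested with edgeR 4.0.16 (quasi-likelihood test, median-ratio factors, R 4.3.3) on genes that reached a normalized count of 1 in 2 or more libraries, with Benjamini-Hochberg adjustment over all genes tested and thresholds of 0.05, or 0.01 for splines with 3 degrees of freedom. Printed levels are counts divided by median-ratio factors over all 40 libraries, so that a level compared between sets also carries the kind of library. Levels per kilobase used the canonical transcript. The tests were run on simulated data first. DESeq2 1.42.0, TMM factors, no filter, a replicate block, both sets in 1 fit, and leaving out libraries were alternatives.

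The genes, gene lists and tests were chosen with earlier results of these data known. Named are all mitochondrial and Sdh genes, the paired isoforms, the 2 most abundant nuclear genes of each complex, and, in each comparison, up to 5 rises and 5 falls that passed the threshold without overlap and whose higher group averaged 50 or more normalized counts. 1 gene that this rule names is not reported here. Other genes are named to account for a small count or as chosen after their values were seen. Same-numbered libraries of different tissues were not taken as pairs, since no source used here states what a number marks. Their deviations correlated above 0.1 in 9 of 18 pairs, which does not settle whether they pair. No library was left out of the main tests.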

Additional observations from a re-analysis of the deposited data

Results flagged for a closer look

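Cox6a2, the heart and skeletal muscle isoform of subunit 6a, stood out because its change from E10.5 to E18.5 differed between larynx and trachea by a test of the difference itself (10.16 on the log2 scale, larynx minus trachea, adjusted p = 0.0296 by edgeR's quasi-likelihood test). The size is not a measured fold, since both larynx libraries of E10.5 were at 0 and the fitted value then depends on the prior count. Neither the replicate block, the fits over all 40 libraries, nor the fit that left out the 3 libraries rich in olfactory receptor genes called it. Against a floor of 3 counts per library the change was at least 931.5-fold in the larynx and 17.2-fold in the trachea, where 173 counts of Cox6a2 and heart marker sums of 4791 and 8604 CPM were present at E10.5. The part of heart tissue in this difference was not tested.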

How the results depend on the processing

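The counts of nuclear genes called at the E13.5 step (82), the E15.5 step (73) and over E10.5 to E18.5 (83) stayed within 1.5 times under TMM factors, no filter, the replicate block, factors from nuclear genes, DESeq2, all 40 libraries with kinds apart, and without the 3 libraries that stood apart. TMM factors moved every gene by 0.122 at the E13.5 step and by −0.213 at the E15.5 step (log2). With all 40 libraries and the kinds together the counts fell to 26 (2 mitochondrial) and 22 at these steps, to 1 from E15.5 to E18.5, to 47, 42 and 6 over the span in larynx, esophagus and trachea, and to 0 for larynx against trachea, and 1 was called from E15.5 to adult. With the kinds apart they were 0 (2 mitochondrial) from E15.5 to E18.5, 31 over the span in the trachea, 0 for larynx against trachea and 22 from E15.5 to adult.

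Without a filter on low counts, 2 nuclear genes were called from E10.5 to E11.5, 12 mitochondrial genes at the E15.5 step, 19 nuclear from E15.5 to E18.5, 1, 7 and 3 for the change in larynx against esophagus, larynx against trachea and trachea against esophagus, 2, 2 and 3 for the same differences as the mean of 5 ages, 20 for larynx minus trachea and 1 for trachea minus esophagus at E18.5, 48 for the kind of library, and 79 and 25 in the larynx and esophagus splines. From E15.5 to E18.5 the count was 1 with TMM factors, 4 with DESeq2 and 7 without the 3 libraries that stood apart. DESeq2 called 2 for larynx against trachea, 1 for trachea minus esophagus over 5 ages, 1 from E15.5 to P0, 5 from E15.5 to adult, 34 for the kind of library, and 70 and 15 in the esophagus and trachea splines. Without the 3 libraries, larynx against trachea gave 0 and the trachea spline 3. The kind of library as a term gave 77, 7 and 74 in the larynx, esophagus and trachea splines, and short-code libraries alone gave 81 and 54 in the last 2. Each tissue alone gave 8 (2 mitochondrial) in the esophagus and 1 (1 mitochondrial) in the trachea at the E13.5 step, 4 (2 mitochondrial) in the larynx at the E15.5 step, and 0, 0 and 1 (0, 0 and 2 mitochondrial) in larynx, esophagus and trachea from E15.5 to E18.5. The cause of these shifts was not tested. Where a count here or above has no share of all genes beside it, it shows only how far the calls moved.

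Whether the replicate numbers pair the libraries is not stated, and the correlations of deviations did not settle it (−0.315 to 0.278, median 0.108). All 3 pairs were above 0.1 at E13.5, from 0.192 to 0.278, with 0.0978 to 0.142 at E18.5. Groups of different age or set reached −0.329 and 0.357 in the same measure. With 2 numbers a block gave 81 and 72 nuclear genes at the E13.5 and E15.5 steps. It gave 1 from E15.5 to E18.5, 0 for larynx against trachea and 7 in the esophagus spline.

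Leaving out 1 library at a time gave these ranges of nuclear genes: 0 to 0 at the E11.5 step, 76 to 83 (4 to 7 mitochondrial) at the E13.5 step, 64 to 76 (5 to 7) at the E15.5 step, 0 to 17 (1 to 5) from E15.5 to E18.5, 82 to 83 (8 to 10) over the span, and 69 to 82, 73 to 83 and 36 to 77 over the span in larynx, esophagus and trachea. Differences between tissues in the change gave 0 to 0, 0 to 2 and 0 to 2, over 5 ages 0 to 0, 0 to 1 and 0 to 1, and at E18.5 0 to 0, 0 to 3 and 0 to 0. The index steps gave 0 to 63 (P0 minus E15.5), 0 to 1 (adult minus P0) and 0 to 59 (adult minus E15.5), the kind of library 2 to 77 (5 to 8 mitochondrial), and the splines 81 to 83, 24 to 59, 1 to 70 and 1 to 12 for the embryonic, larynx, esophagus and trachea fits. Of single genes, mt-Nd3 from E15.5 to E18.5 changed sign in the esophagus alone (−0.23), and the share of nuclear genes at E18.5 over E10.5 was 1.66 of all counts against 2.06 of nuclear protein-coding counts.

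Depth limits the genes under 10 counts, and the sharing of reads limits the mitochondrial genes with nuclear copies.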
